A study of Mus musculus with 12 samples.

Results

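Mouse thymocytes at the DN3 stage were compared with the stages directly before and after them, DN2 and DN4, in 1 contrast: the DN3 mean minus the average of the DN2 mean and the DN4 mean. The contrast used 12 of the 12 arrays of the series, 4 for each stage. It asked which transcripts were transiently high or low at DN3, as opposed to transcripts that moved steadily through the 3 stages. A gene was called when its adjusted p in the limma fit was under 0.05, and of 11166 genes tested 1373 were called (12.3%). Within these calls a DN3 peak was a gene also called higher in DN3 than in DN2 and than in DN4, and a trough was a gene called lower than in both. There were 236 peaks and 162 troughs. In pooled cells of this kind fewer cells of a type and less RNA per cell cannot be told apart.

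Double negative (DN) thymocytes carry neither CD4 nor CD8. Donors were C57BL/6 females, 5 to 6 weeks old, and the labels name no allele or treatment. CD4+ and CD8+ cells were removed on magnetic columns, and the sort then left out whatever carried a lineage marker (CD4, CD8, CD3, TCRgamma-delta or NK1.1). DN2 cells were then sorted as CD44+CD25+, DN3 cells as CD44-CD25+ and DN4 cells as CD44-CD25-. There were 4 separate sorts, each of a pool of 4 mice (16 mice), and every sort yielded DN2, DN3 and DN4 cells. The 3 arrays of a sort therefore share their mice, and each array is a pool. RNA was amplified through repeated cDNA synthesis and hybridised to Affymetrix Mouse Genome 430 2.0 arrays.

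DN3 is the stage at which developing T cells complete rearrangement of the T cell receptor beta locus and first assemble the pre-T cell receptor, in which the beta chain pairs with the invariant pre-T alpha chain on a CD3 complex. Notch signals from the thymic stroma drive commitment to the T lineage up to this point. Cells whose beta chain pairs pass beta-selection, lower CD25, Notch target and recombinase transcripts, and divide as DN4 cells.

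Of the genes tested, 712 were higher in DN3 than the mean of its neighbours (6.38%) and 661 were lower (5.92%). Of the higher genes 123 differed at least 2-fold, and of the lower genes 69. Peaks made up 2.11% of the genes tested and troughs 1.45%. The single steps behind these calls had 1105 genes higher (9.9%) and 1217 lower (10.9%) in DN3 than in DN2, and 1658 higher (14.8%) and 1724 lower (15.4%) than in DN4. The median contrast was 0.77 among peaks and -0.53 among troughs on the log2 scale, on which a difference of 1 is a 2-fold change. A set of 36 peaks and 6 troughs lay at least 2-fold from both neighbours. DN3 stood above both neighbours within 4 of 4 sorts for 230 of the peaks, and below both for 156 of the troughs. In 127 peaks every DN3 array lay above every other array, as it did in 158 of all genes tested (1.42%). In 71 troughs every DN3 array lay below every other array, as it did in 105 of all genes tested (0.94%).

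The split between higher and lower calls depended on how arrays were scaled. Quantile normalization left a median contrast of -0.01 over all genes. With arrays centred on their median it was 0.09, and 1198 genes were called higher and 284 lower, with 360 peaks and 50 troughs. With no between-array normalization it was 0.27, and 1425 genes were called higher and 94 lower, with 251 peaks and 9 troughs. Of the 162 troughs 47 were kept under median centring and 8 without normalization, against 230 and 150 of the 236 peaks. Without the sort as a block 106 peaks and 46 troughs were called. The count of higher genes was 408, 324, 450 and 423 without the DN3 array of sort 1, 2, 3 or 4. The count of lower genes was then 285, 228, 332 and 331, and it was 428 without the DN2 array of sort 4. Peaks numbered 156 and 134 without the DN3 array of sort 1 or 2. Troughs numbered 91, 75 and 104 without the DN3 array of sort 1, 2 or 4, 99 without the DN2 array of sort 4 and 105 without the DN4 array of sort 2.

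**Figure D1:**
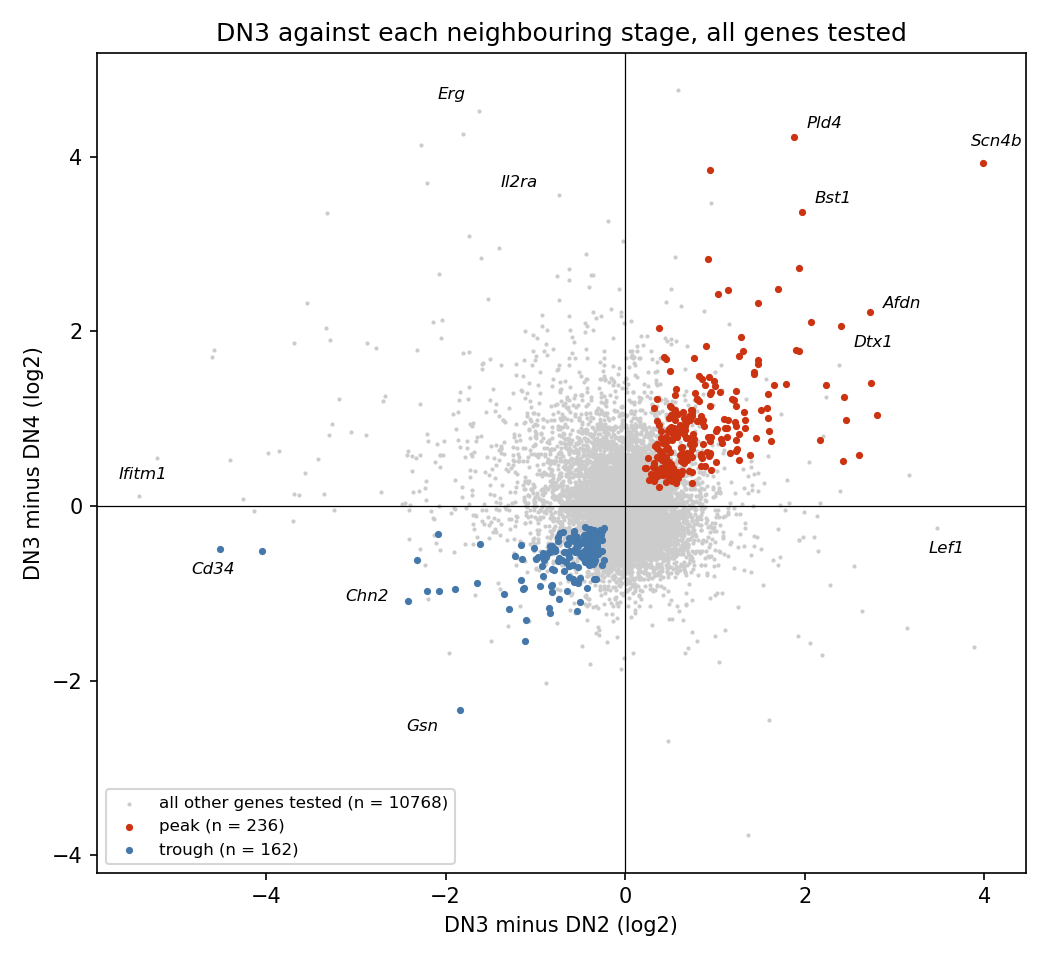
Difference of DN3 from DN2 (x axis, log2) and from DN4 (y axis, log2) for the 11166 genes tested, 1 point a gene. Peaks (n = 236, red) lie in the upper right with Scn4b farthest out, and troughs (n = 162, blue) lie in the lower left with Gsn far from both axes and Cd34 close to the horizontal one. Lef1 owes its contrast to 1 step, while Il2ra lies between its neighbours with unequal steps.

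The labels of the stages were checked on the genes that define the gates. Cd44, which encodes the adhesion receptor used in the gate, had a signal of 713, 428, 701 and 1059 in DN2 of sorts 1 to 4, of 49.6, 34.2, 49.8 and 64.1 in DN3, and of 31.3, 25.5, 62.0 and 69.6 in DN4. Il2ra, which encodes CD25, had 2204, 2196, 2477 and 2553 in DN2, 1155, 1441, 1523 and 1535 in DN3, and 68.5, 104, 137 and 170 in DN4. Both genes followed the gates: every DN2 array stood above the others for Cd44, and every DN4 array below the others for Il2ra. Il2ra lay between its neighbours in DN3 and so was called higher than their mean (contrast 1.41 ± 0.13 SE) without being a peak. Cd8a, a marker of the depleted cells, was dim, with a mean of 4.77 in DN2, 5.25 in DN3 and 6.22 in DN4 on the log2 scale, where 4.71 was the level of the filter on dim signals. Its contrast was -0.25 and not called (adjusted p = 0.542), but it was called at -0.96 without the DN2 array of sort 3 (adjusted p = 0.00575) and at -0.91 without the DN3 array of sort 4 (0.0202). Its 5 probe sets ranged from -1.11 to -0.25, and it was also called with their mean (-0.76, adjusted p = 0.00236) and without probe sets that match several transcripts (-0.92, 0.00417). Cd8b1, the CD8 beta chain, had 0.7, 4.5, 8.9 and 1 in DN2, 31, 11.6, 14.5 and 15.8 in DN3, and 241, 257, 424 and 330.3 in DN4. Both CD8 genes were highest in the mean of DN4. The contrast of Cd8b1 was -1.2 (adjusted p = 0.0247), and it was not called without the DN3 array of sort 2, 3 or 4 (0.07 to 0.106).

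Of the 5 transcripts taken as marks of DN3, Scn4b, Dtx1, Bst1 and Afdn were peaks and Gsn was a trough. Scn4b, which encodes an auxiliary beta subunit of voltage-gated sodium channels, had the largest contrast of all genes tested. Its signal was 574, 879, 700 and 465 in DN3 of sorts 1 to 4, against 35.8, 64.5, 29.3 and 21.0 in DN2 and 26.8, 64.5, 26.0 and 39.1 in DN4. The lowest DN3 array was several times the highest array of either neighbour. The contrast was 3.96 ± 0.17 (SE, limma adjusted p = 4.96e-05), and it was 3.99 against DN2 and 3.93 against DN4.

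Scn4b was 1 of 3 called members among 17 tested genes for voltage-gated channels and their subunits, all 3 of them peaks, and 0 were called lower. Scn4b was taken beforehand as a mark of DN3, and the list was chosen with earlier results of these data known. The count is therefore no separate support. The list's median was 0.17, against -0.01 over all genes, of which 6.38% were called higher and 5.92% lower. Scn2b, a second sodium channel beta subunit, had 55.0, 72.0, 64.3 and 61.6 in DN3, at most 25.6 in DN2 and at most 33.9 in DN4. Its groups were apart, with a contrast of 1.35 ± 0.20 (SE, limma adjusted p = 0.00531), although the mean of its probe sets gave 0.68. Kcnh2, which encodes a potassium channel of the heart, ranged from 212 to 328 in DN3, from 107 to 210 in DN2 and from 111 to 226 in DN4, so its stages overlapped across sorts. DN3 was the highest stage in 4 of 4 sorts, the contrast was 0.71 ± 0.11 (SE, limma adjusted p = 0.00527), and without the sort block its adjusted p was 0.0799. Among receptor channels, Chrna9, a nicotinic acetylcholine receptor subunit, had 56.1, 55.9, 86.4 and 62.9 in DN3 against at most 22.8 in DN2 and 36.4 in DN4. All of its DN3 arrays stood above the rest, with a contrast of 1.6 ± 0.09 (SE, limma adjusted p = 6.06e-05). The DN2 mean of Chrna9 (log2 4.34) lay below the level of the filter on dim signals, and its DN4 mean (4.72) was close to that level. Chrna9 thus passed the filter through its DN3 arrays, and the size of its contrast depends on the offset.

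**Figure D2:**
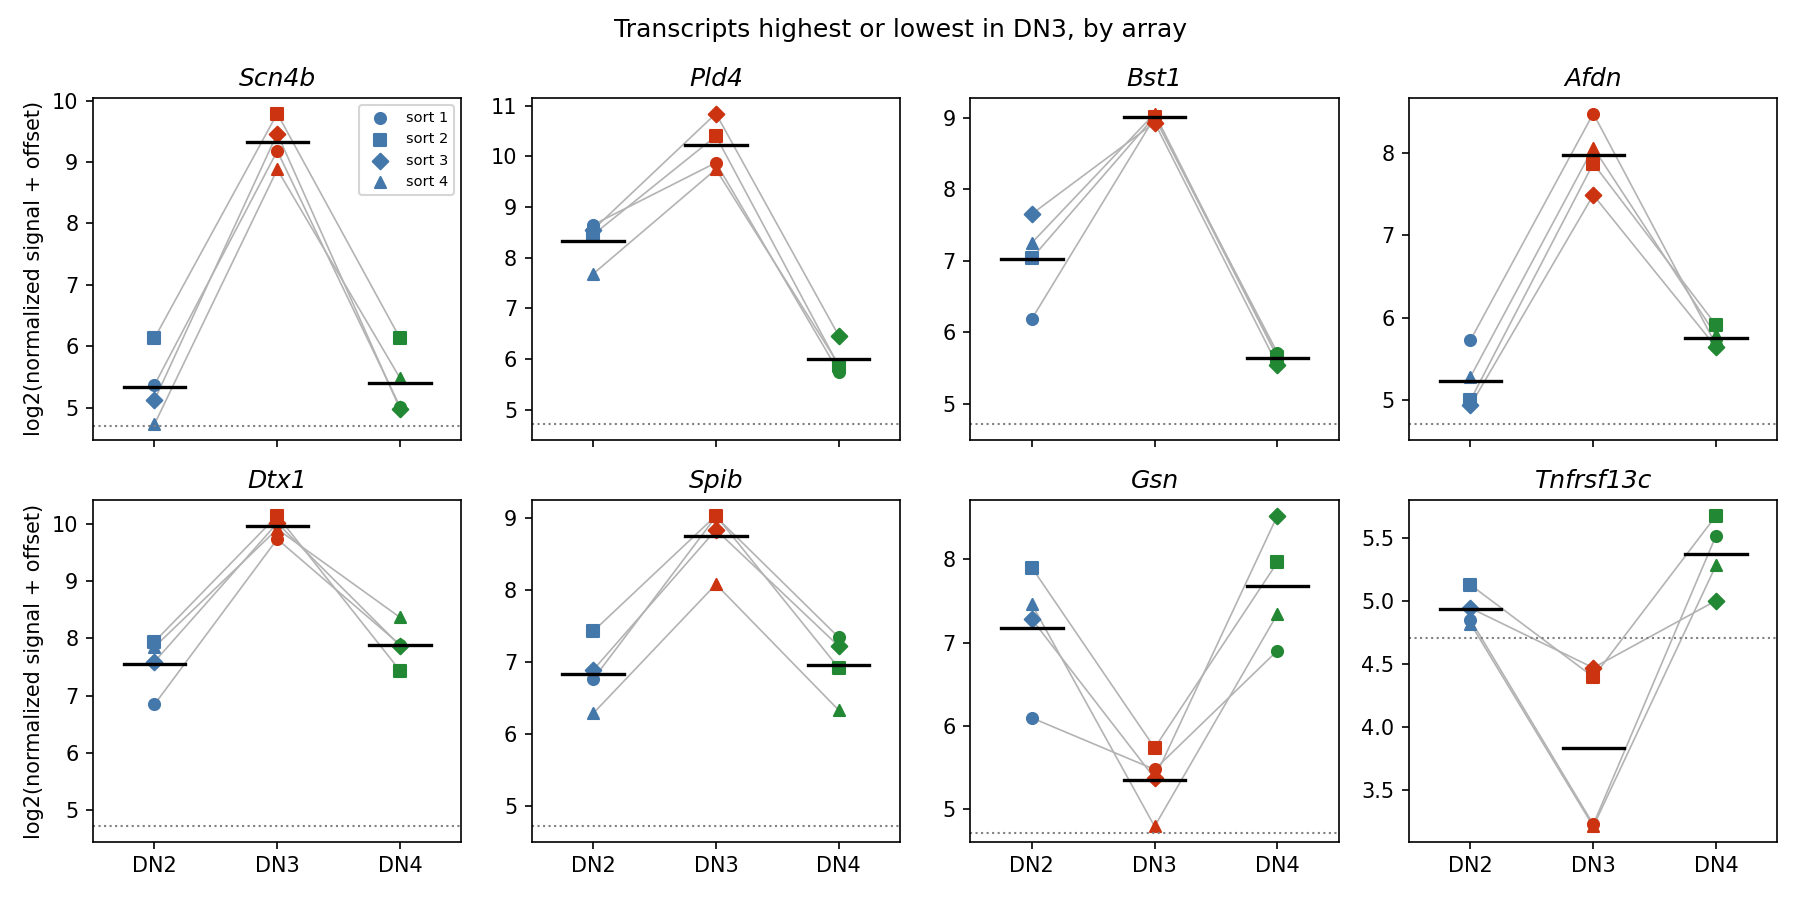
Log2 of normalized signal plus offset (y axis) on each array for 6 peaks and 2 troughs by stage (x axis); marker shapes are the 4 sorts, grey lines join arrays of a sort, black bars are stage means and the dotted line is the filter level of 4.71. In the 6 peaks every DN3 point lies above all others, and for Tnfrsf13c the 4 DN3 points lie below the filter level.

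Notch receptors and targets were examined as the signals that act up to this stage. Of 15 Notch targets tested, 5 were higher in DN3 (Dtx1, Hes1, Ptcra, Il2ra and Lef1) and 2 were lower (Nrarp and Ccnd3). The list's median contrast was 0.32, and 3 members were peaks. The list counts Dtx1, taken beforehand as a mark of DN3, so the count is no separate support. Among all genes tested 6.38% were higher and 5.92% lower. Dtx1, which encodes the Notch-induced ubiquitin ligase Deltex 1, had 849, 1131, 1033 and 960 in DN3, 109, 240, 187 and 225 in DN2, and 232, 168, 229 and 325 in DN4. DN3 arrays were apart from all others, with a contrast of 2.23 ± 0.20 (SE, limma adjusted p = 0.000507). The peak of Dtx1 belonged to 1 of its 2 probe sets. Without probe sets that match several transcripts, the other probe set gave a contrast of 0.94 and DN3 minus DN4 of -0.07 (adjusted p = 0.8).

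Hes1, a transcriptional repressor and classical Notch target, differed more between sorts than between stages. It had 2638, 3302, 5058 and 4497 in DN3, 1241, 1851, 3512 and 3072 in DN2, and 1710, 1933, 2495 and 2943 in DN4. Arrays of different sorts overlapped, while within each sort DN3 was highest. The contrast was 0.75 ± 0.12 (SE, limma adjusted p = 0.00679), and without the sort block its adjusted p was 0.161. Notch3, the receptor that is itself raised by Notch signals, had 722, 1034, 778 and 704 in DN3, at most 495 in DN2 and at most 355 in DN4. Its contrast was 1.14 ± 0.10 (SE, limma adjusted p = 0.000489), with no overlap of arrays.

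Other Notch genes changed at 1 step. Of 27 receptors and machinery genes tested, 3 were higher (Notch3, Maml1 and Dtx4), and 1 was lower (Psenen, a gamma-secretase subunit). The list's median was 0.03, and 6.38% of all genes tested were higher and 5.92% lower. Dtx4, another Deltex ligase, had a mean of 7.57 in DN2 and 7.38 in DN3 and fell to 4.12 in DN4. Nrarp, a feedback inhibitor of Notch, fell from 9.02 in DN2 to 7.72 in DN3, with 7.31 in DN4. Its negative contrast of -0.45 (adjusted p = 0.0465) and that of Ccnd3, encoding cyclin D3 (-0.48, adjusted p = 0.0484), were at the edge of the threshold, and both were named to complete this count, after their values were seen. The call of Nrarp was lost without any 1 of 11 arrays (adjusted p 0.0577 to 0.156; all but the DN2 array of sort 2). That of Ccnd3 was also lost without any 1 of 11 (0.0536 to 0.139; all but the DN2 array of sort 1), and its contrast was -0.32 without the DN3 array of sort 1.

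Genes of the pre-T cell receptor were higher in DN3, and most so the chain that gives it its name. Of the 5 CD3 chains and pre-T alpha tested, 4 were higher in DN3 and 3 of these were peaks (Ptcra, Cd3d and Cd3e), with a list median of 0.79. Shares of all genes tested were 6.38% higher and 2.11% peaks. Ptcra, the pre-T alpha chain, had 339, 836, 785 and 489 in DN3, 56.1, 155, 137 and 82.3 in DN2, and 190, 298, 439 and 278 in DN4. DN3 was highest within each sort, while the lowest DN3 array lay below the highest DN4 array. The contrast was 1.72 ± 0.12 (SE, limma adjusted p = 0.000202). Without the sort block the peak was lost, since DN3 against DN4 then had an adjusted p of 0.087.

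Cd3e, a signalling chain of the complex, had 780, 1068, 715 and 721 in DN3, 389, 568, 431 and 392 in DN2, and 491, 573, 458 and 455 in DN4. All DN3 arrays were above the others, with a contrast of 0.79 ± 0.07 (SE, limma adjusted p = 0.000555). Cd3d had 3279, 3668, 3345 and 3090 in DN3, at most 818 in DN2, and 2372, 2117, 2647 and 2188 in DN4. Its rise from DN2 was 2.43 and its drop to DN4 0.52 (adjusted p = 0.04). That second step was not called without any 1 of 9 arrays (adjusted p 0.0502 to 0.117), namely the DN3 arrays, the DN2 arrays of sorts 1 and 3 and the DN4 arrays of sorts 1 to 3. Cd3g had means of 12.43 in DN2 and 12.55 in DN3 (adjusted p = 0.346) and was lower in DN4 (11.67). Cd247, the zeta chain, had means of 9.60, 9.95 and 9.87 and was not called (contrast 0.21, adjusted p = 0.141). Cd3g and Cd247 were named to complete this list, after their values were seen.

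Of the recombination genes 1 of 11 tested was higher and 0 lower. With 6.38% of all genes tested higher and 5.92% lower, this count did not set the list apart. The higher gene was Rag1, which encodes the recombinase subunit that cuts receptor gene segments. It had 4548, 5171, 4836 and 4074 in DN3, 865, 1285, 1097 and 919 in DN2, and 2793, 2784, 3013 and 2405 in DN4. DN3 arrays stood above all others, with a contrast of 1.46 ± 0.08 (SE, limma adjusted p = 6.06e-05), most of it from the step after DN2 (2.17, against 0.76 over DN4).

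The promoters of 4 peak genes are printed to show which carry 2 motifs tied to this stage, the RBPJ core TGGGAA, bound by the DNA-binding partner of Notch, and the E-box CAGCTG, bound by E proteins. Windows run from 250 bases before to 50 bases after the RefSeq start (GRCm38.p6), 5′ to 3′ on the gene's strand, with matches on either strand in capitals. Scn4b (chr9:45138374-45138673, plus strand) is shown as the largest peak, and Dtx1 (chr5:120711620-120711919, minus strand) as the Notch target with the largest contrast. Ptcra (chr17:46763663-46763962, minus strand) and Rag1 (chr2:101649483-101649782, minus strand) are shown as receptor assembly genes.
Scn4b: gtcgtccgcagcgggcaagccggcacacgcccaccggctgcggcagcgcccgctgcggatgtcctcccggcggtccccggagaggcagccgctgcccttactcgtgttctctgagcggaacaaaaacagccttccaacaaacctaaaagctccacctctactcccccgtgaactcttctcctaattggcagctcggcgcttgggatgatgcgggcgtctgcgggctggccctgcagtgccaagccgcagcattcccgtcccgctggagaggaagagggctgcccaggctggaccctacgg
Dtx1: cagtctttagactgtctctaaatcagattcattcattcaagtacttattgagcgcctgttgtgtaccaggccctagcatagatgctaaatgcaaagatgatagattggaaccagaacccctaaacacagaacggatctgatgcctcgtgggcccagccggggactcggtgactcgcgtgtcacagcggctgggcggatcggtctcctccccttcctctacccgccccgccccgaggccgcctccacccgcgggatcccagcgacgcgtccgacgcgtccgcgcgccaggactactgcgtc
Ptcra: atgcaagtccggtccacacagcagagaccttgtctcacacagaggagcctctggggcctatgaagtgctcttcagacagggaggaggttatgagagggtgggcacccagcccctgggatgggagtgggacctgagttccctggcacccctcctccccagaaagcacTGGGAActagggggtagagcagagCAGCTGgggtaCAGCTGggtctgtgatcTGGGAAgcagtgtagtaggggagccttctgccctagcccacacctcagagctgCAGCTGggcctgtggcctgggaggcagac
Rag1: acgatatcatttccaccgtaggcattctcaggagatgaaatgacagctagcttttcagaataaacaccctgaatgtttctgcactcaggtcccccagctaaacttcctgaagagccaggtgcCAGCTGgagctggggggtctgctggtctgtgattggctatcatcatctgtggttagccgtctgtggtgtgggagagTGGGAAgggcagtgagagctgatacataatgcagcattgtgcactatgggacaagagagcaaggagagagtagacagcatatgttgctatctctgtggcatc
Ptcra held 2 RBPJ cores and 3 E-boxes, and Rag1 held 1 of each. Scn4b and Dtx1 held 0 of either in these windows, which says only that these letters are not there. In RefSeq the gene Dtx1 runs up to base 120711867, which lies inside its window. The start used for Dtx1 thus lay within the gene, and bases farther before the gene's outer end were not searched. RefSeq windows were found for 185 of the 236 peak genes (244 windows), of which 21.3% held the RBPJ core and 18% the E-box. The shares were 19.1% and 17.1% over 199 windows of 132 trough genes, and 22.7% and 15.1% over 11619 windows of genes tested. These shares are a description of letters, not of binding.

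A group of peaks encode proteins of cell junctions and adhesion. Of 28 junction and actin regulators tested, 5 were higher (Afdn, Cdh1, Epcam, Actn1 and Arhgef10l) and 3 were lower (Ctnna1, Vcl and Evl). The list held 4 peaks and 2 troughs, with a median of 0.03. It counts Afdn, taken beforehand as a mark of DN3, so the count is no separate support. Shares of all genes tested were 6.38% higher and 5.92% lower. Afdn, encoding the junction scaffold afadin, had 350, 228, 174 and 261 in DN3, 47.5, 26.5, 25.1 and 33.4 in DN2, and 45.4, 54.6, 44.4 and 49.6 in DN4. Its DN3 arrays were far above the rest, with a contrast of 2.48 ± 0.14 (SE, limma adjusted p = 6.06e-05). The mean of its 2 probe sets, of which 1 was bright, gave 1.18.

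Cadherins rose with it. Cdh1, or E-cadherin, had 268, 381, 257 and 297 in DN3, 100.6, 177, 160 and 197 in DN2, and 25, 59.8, 40.3 and 29.8 in DN4, a contrast of 1.88 ± 0.15 (SE, limma adjusted p = 0.000333). Its DN3 arrays were above all DN2 arrays by less than above DN4 arrays. The peak of Cdh1 was lost with the ratio of 3′ to 5′ Gapdh probe sets as a covariate (larger limma adjusted p 0.381). It was also lost with sorts 3 and 4 only (0.124) and without the 3 arrays of lowest signal (0.0542), though its contrast stayed called. Cdh15, a cadherin named for its place in muscle, had 457, 415, 311 and 365 in DN3 and at most 164 elsewhere, a contrast of 2.10 ± 0.11 (SE, limma adjusted p = 4.96e-05).

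Itgae and Itgb4 were the integrin genes described among the peaks. Of 22 trafficking receptors and integrins tested 4 were higher (Itgae, Itgb1, Plxnd1 and Sema4a) and 4 lower (Klf2, Itga4, Itgb7 and Cd44), with a median of -0.15. Shares of all genes tested were 6.38% higher and 5.92% lower. Itgb7 encodes the beta chain that pairs with the alpha chain encoded by Itgae. Itgae, the alpha chain of the integrin that binds E-cadherin, had 102, 181, 156 and 175 in DN3, at most 31.0 in DN2 and at most 90.1 in DN4 (contrast 1.85 ± 0.22 SE). Itgb4, a laminin receptor chain of epithelia, had 70.8, 124, 96.7 and 64.6 in DN3, at most 37.5 in DN2 and at most 19.5 in DN4 (contrast 2.34 ± 0.23 SE). In both, DN3 arrays stood apart from all others, with limma adjusted p of 0.00189 and 0.000781. Itgae was not called with sorts 1 and 2 only (0.0558) or sorts 3 and 4 only (0.0565). Nor was it called without the 3 arrays of lowest signal (0.0538), and its peak was lost in each case. The DN2 and DN4 means of Itgb4 lay below the filter level, as did those of 16 of the 236 peaks. Such genes entered the test through DN3, and the size of their log2 difference depends on the offset. Epcam, an epithelial adhesion molecule, ranged from 369 to 553 in DN3 and from 73.4 to 228 elsewhere, with a contrast of 1.58 ± 0.17 (SE).

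Dimmer junction and cytoskeleton genes had the same shape. Rnd3 had 25.8, 32, 50.6 and 48.4 in DN3 and at most 14.0 elsewhere, and Arhgef10l ranged from 28.1 to 51.6 in DN3 and had at most 20.9 elsewhere. Their contrasts were 1.86 ± 0.28 and 2.09 ± 0.32 (SE). Both were among the peaks with both neighbours below the filter level. Scel, which encodes sciellin of the epithelial cornified envelope, ranged from 408 to 1001 in DN3, from 129 to 340 in DN2 and from 105 to 136 in DN4. Fbln2, an extracellular matrix protein, had 119, 289, 383 and 313 in DN3 and overlapped with DN4, whose highest array had 121. By the mean of its probe sets Scel had a contrast of 0.97 in place of 1.90 and Fbln2 one of 0.98 in place of 1.81.

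Peaks among enzymes, transporters and surface proteins were led by Pld4 and Bst1. Pld4, a nuclease of the phospholipase D family found in endolysosomes, had 935, 1348, 1837 and 854 in DN3, 396, 345, 370 and 200 in DN2, and 48.0, 52.5, 82.4 and 53.6 in DN4. The order DN3, DN2, DN4 held with no overlap, and the contrast was 3.06 ± 0.17 (SE, limma adjusted p = 6.06e-05).

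Bst1, a surface enzyme that makes cyclic ADP-ribose from NAD, had 509, 513, 484 and 529 in DN3, a narrow spread. It had 67.2, 126, 196 and 147 in DN2 and 46.8, 44.6, 40.9 and 44.8 in DN4, so the stages were again apart. The contrast was 2.67 ± 0.20 (SE, limma adjusted p = 0.000272), and a second bright probe set gave 1.40. With the ratio of 3′ to 5′ Gapdh probe sets as a covariate the peak was lost (larger limma adjusted p 0.1), though the contrast stayed called at 2.35. Slc5a9, a sodium-coupled sugar transporter, had 131, 119, 216 and 154 in DN3, at most 24.7 in DN2 and at most 102 in DN4 (contrast 1.92 ± 0.19 SE). Vwce, a secreted protein with von Willebrand factor domains, ranged from 137 to 224 in DN3, from 15 to 26.5 in DN2 and from 58.2 to 68.3 in DN4 (contrast 2.07 ± 0.15 SE). Both rose more from DN2 than they dropped to DN4. Tm6sf1, a membrane protein, was the brightest of this set, with 1571 to 1928 in DN3 against at most 882 elsewhere (contrast 1.54 ± 0.12 SE).

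Among T-lineage transcription factors, Spib had the largest contrast. It encodes an ETS family factor that lymphoid and dendritic cells use. It had 512, 517, 450 and 264 in DN3, 102, 166, 112 and 72.1 in DN2, and 156, 115, 143 and 74.6 in DN4. The arrays of sort 4 were lowest at each stage, and DN3 was still above every array of the other stages, with a contrast of 1.85 ± 0.14 (SE, limma adjusted p = 0.000224). Spib and Pld4 are also transcripts of plasmacytoid dendritic cells, whose defining marker Siglech lay below the filter level at every stage (log2 3.08 in DN2, 3.30 in DN3 and 3.89 in DN4). Of 12 dendritic cell markers 5, Siglech among them, lay below that level at every stage. Others lay above it, such as Bst2 (8.54, 8.51 and 7.96 in DN2, DN3 and DN4) and Irf8 (6.91, 7.17 and 7.54). The part of such cells in these peaks was not tested.

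Of 28 factors of the T lineage tested, 7 were higher (Bcl11b, Lef1, Runx1, Ets2, Spib, Patz1 and Foxo1) and 1 was lower (Runx3), with a list median of 0.17. The count of higher genes was 4 without the DN3 array of sort 1, 2 or 4. In the main fit 6.38% of all genes tested were higher and 5.92% lower. Only Spib and Bcl11b of the T-lineage factors were peaks, and Bcl11b by a small margin, 0.33 above each neighbour. The contrast of Bcl11b, a factor needed for T lineage commitment, which was named after its values were seen, was not called without any 1 DN3 array (adjusted p 0.0572 to 0.106). Among E proteins and their inhibitors Id2 and Hes1 were higher and Lyl1 was lower, of 8 tested. Id2, an inhibitor of E proteins, had 605, 445, 1083 and 791 in DN3, 155, 206, 786 and 384 in DN2, and 269, 283, 605 and 408 in DN4. DN3 was highest within each sort although sorts overlapped, with a contrast of 1.01 ± 0.18 (SE, limma adjusted p = 0.01). Without the sort block its adjusted p was 0.188, and without probe sets that match several transcripts it was 0.3 at a contrast of 0.53.

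Hdac4 and Hdac5, both class IIa histone deacetylases, went opposite ways. Hdac4 had 777, 1035, 667 and 531 in DN3, 336, 469, 247 and 195 in DN2, and 197, 241, 155 and 170 in DN4, a contrast of 1.61 ± 0.10 (SE, limma adjusted p = 0.000122). Hdac5 had 103, 87.1, 79.4 and 94.3 in DN3, 195, 142, 126 and 126 in DN2, and 186, 183, 214 and 153 in DN4, a contrast of -0.81 ± 0.12 (SE, limma adjusted p = 0.0048). DN3 arrays were above all others for Hdac4 and below all others for Hdac5. Without between-array normalization Hdac5 had a contrast of -0.48 (adjusted p = 0.103). Its call was also lost with the ratio of 3′ to 5′ Gapdh probe sets as a covariate (limma adjusted p = 0.123). The same held with sorts 1 and 2 only (0.0609), sorts 3 and 4 only (0.102) and without the 3 arrays of lowest signal (0.0552). Of 24 chromatin and DNA methylation genes tested 3 were higher and 3 lower, against 6.38% and 5.92% of all genes tested, with a median of 0.04.

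Genes of receptor signalling and of cell survival were higher in part. Of 36 T cell receptor signalling genes tested, 10 were higher and 3 were lower, against 6.38% and 5.92% of all genes, with a list median of 0.09. The higher count was 6, 6 and 5 without the DN3 array of sort 2, 3 or 4. Cblb, a ubiquitin ligase that restrains receptor signals, had 563, 642, 402 and 474 in DN3, 373, 522, 280 and 311 in DN2, and 279, 279, 174 and 200 in DN4. DN3 was highest within each sort, though arrays of DN2 and DN3 overlapped, and the contrast was 0.82 ± 0.08 (SE, limma adjusted p = 0.000663). Nfatc1, a calcium-regulated factor named after its values were seen, ranged from 652 to 784 in DN3 and from 364 to 586 elsewhere, with a contrast of 0.56 ± 0.08 (SE). By the mean of its 5 probe sets the contrast was not called (0.23, limma adjusted p = 0.117) and the peak was lost (larger adjusted p 0.411). Contrasts of its 5 probe sets ran from -0.15 to 0.56.

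Il21r, the interleukin 21 receptor, had 275, 304, 321 and 209 in DN3 and at most 198 in DN2 and 151 in DN4. Its DN3 arrays were above all others, with a contrast of 0.93 ± 0.12 (SE, limma adjusted p = 0.00252). Of 17 survival and apoptosis genes tested 3 were higher (Bcl2, Bmf and Traf1) and 0 lower, with a median of 0.01. Shares of all genes tested were 6.38% and 5.92%. Bmf, a BH3-only protein that antagonises BCL2, had 668, 744, 740 and 450 in DN3, at most 256 in DN2 and at most 364 in DN4. It was apart in all arrays, with a contrast of 1.31 ± 0.11 (SE, limma adjusted p = 0.000441), and 0.80 by the mean of its 3 probe sets. A second bright probe set of Bmf gave 0.23. Traf1, an adaptor of TNF receptors, had a contrast of 0.77 ± 0.15 (SE, limma adjusted p = 0.0161), which was not called without any 1 DN3 array (0.0514 to 0.0675). Bcl2 itself was no peak: its mean log2 signal went from 10.68 (DN2) through 9.70 (DN3) to 7.98 (DN4). Its contrast of 0.37 (adjusted p = 0.0434) was not called without any 1 of 10 arrays (0.0505 to 0.169; all but the DN3 and DN4 arrays of sort 4).

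Genes that respond early after beta-selection were also in part higher, 6 of 22 tested against 2 lower, with a median of 0.21. Shares of all genes tested were 6.38% higher and 5.92% lower. Egr3, a factor induced by the pre-T cell receptor, had 21.9, 38.8, 48.0 and 34.4 in DN3, 8.5, 5.6, 18.3 and 12.3 in DN2, and 4.7, 10.5, 22.1 and 23.2 in DN4. DN3 was highest within each sort, but arrays of DN3 and DN4 overlapped at signals close to the filter. The contrast was 1.20 ± 0.18 (SE, limma adjusted p = 0.00556), and by the mean of its 2 probe sets 0.47 (adjusted p = 0.257). The DN2 and DN4 means of Egr3 (log2 4.01 and 4.25) lay below the filter level. Egr3 thus entered the test through its DN3 arrays, so its adjusted p follows a selection on DN3. The size of its contrast depends on the offset. Egr1 had a contrast of 0.81 ± 0.15 (SE, limma adjusted p = 0.0118), which was not called without the DN3 array of sort 2 (adjusted p = 0.0551). Its peak was lost without any 1 of the DN3 arrays or of the DN2 arrays of sorts 1, 2 and 4 (adjusted p 0.0635 to 0.0789). Immediate early genes, which handling of cells can also induce, had a summed signal of 8497 to 18360 in DN2, 14760 to 21580 in DN3 and 11880 to 16070 in DN4. The log2 contrast of that sum was 0.41 (exact permutation test within sorts, two-sided p = 0.037, adjusted p = 0.231 over 15 array measures), and its part in the Egr genes was not tested.

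**Figure D3:**
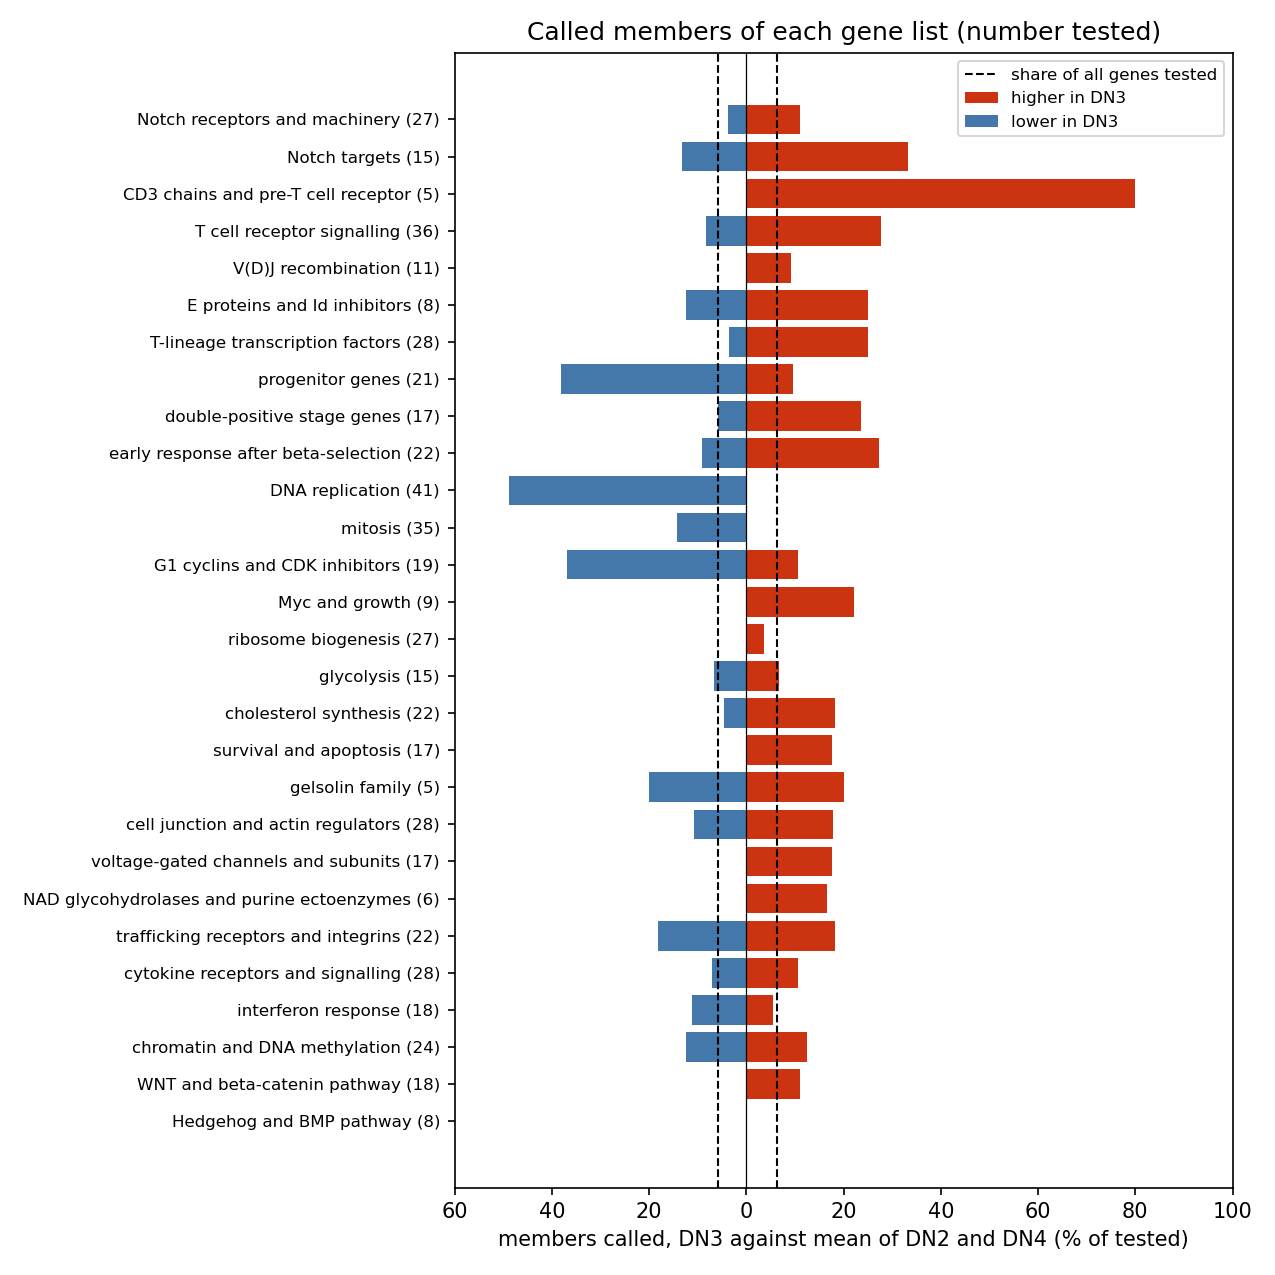
Share of the tested members of 28 gene lists called higher (red, to the right) or lower (blue, to the left) in DN3 against the mean of DN2 and DN4 (x axis, % of members tested), with the number tested in brackets and dashed lines at the shares of all genes tested, 6.38% and 5.92%. DNA replication has the longest bar to the left (20 of 41) and CD3 chains with pre-T alpha the longest to the right (4 of 5).

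Of the troughs, Gsn was the one farthest from both neighbours. It encodes gelsolin, a calcium-dependent protein that severs actin filaments. It had 39.0, 47.8, 35.9 and 22.2 in DN3, 62.9, 234, 150 and 171 in DN2, and 114, 244, 363 and 157 in DN4. Every DN3 array was below every other array, and the neighbours spread far more than DN3 did. The contrast was -2.09 ± 0.28 (SE, limma adjusted p = 0.00325), with -1.84 against DN2 and -2.34 against DN4. It was not called with sorts 1 and 2 only (-1.59, limma adjusted p = 0.0792), where the trough was lost too (0.083). Nor was it called without the 3 arrays of lowest signal (-2.17, 0.0517). Contrasts of the 5 probe sets above the filter level ran from -2.09 to -0.67, and the mean of all 6 gave -1.16. Of 5 gelsolin family genes tested the other called one was Scin, encoding scinderin, which was higher than the mean of its neighbours because it fell in unequal steps (11.68, 9.47 and 5.77). Its contrast of 0.75 (adjusted p = 0.0127) was not called without the DN3 array of sort 2 or 3 (0.0525 and 0.0602).

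Other cytoskeleton genes among the troughs were Vcl, encoding vinculin, Evl, of the Ena/VASP family, and Chn2, a Rac GTPase-activating protein. Vcl ranged from 130 to 174 in DN3 and from 179 to 270 elsewhere, and Evl from 61.4 to 81.9 in DN3 and from 95.1 to 124 elsewhere. Their contrasts of -0.48 ± 0.07 and -0.53 ± 0.09 (SE) came with DN3 arrays below all others. Neither was called with arrays centred on their median (adjusted p = 0.0544 and 0.0659), and both were named after their values were seen. Chn2 had 1.0, 2.0, 19.2 and 2.0 in DN3, 47.2, 37.4, 46.2 and 60.0 in DN2, and 12.9, 7.0, 19.3 and 27.0 in DN4. Its DN3 array of sort 3 was level with DN4 of the same sort. The contrast was -1.75 ± 0.29 (SE, limma adjusted p = 0.00803), but the step to DN4 was lost without any 1 of 9 arrays (adjusted p 0.0538 to 0.118; all but the DN2 arrays of sorts 1 and 3 and the DN3 array of sort 3).

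Cd34, a sialomucin of progenitors, had the largest negative contrast of any trough, but nearly all of it came from 1 step. It had 131, 132, 159 and 295 in DN2, 0.8, 0.9, 1.7 and 5.9 in DN3, and 2.1, 1.5, 8.7 and 11.4 in DN4. DN3 and DN4 were both far below the filter level and overlapped. The step to DN4 was -0.49 (adjusted p = 0.0331), and it was not called without the DN3 or the DN4 array of sort 3 or of sort 4 (adjusted p 0.0556 to 0.104), without the sort block (0.347) or without normalization (0.15). Of 21 progenitor genes tested 8 were lower, 2 were higher (Erg and Mycn) and 1, Cd34, was a trough, with a list median of -0.33. The lower count was 5 without any 1 DN3 array or without the DN2 array of sort 2 or 4. In the main fit 6.38% of all genes tested were higher and 5.92% lower.

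Of the lists, DNA replication had the most members lower in DN3 than the mean of its neighbours, mostly through the step to DN4. Single steps had 33 of 41 genes called lower than in DN4 (median -0.51), and 4 lower and 1 higher than in DN2 (median -0.10). Of the 41 tested, 20 were lower and 0 higher, 4 were troughs (Prim1, Pole, Rfc1 and Rfc2) and 39 had a negative contrast. The list's median was -0.34, a small difference of the same order in most members. Among all genes tested 5.92% were lower. Gins2, a subunit of the replicative helicase complex, had 642, 530, 513 and 658 in DN3, 686, 633, 633 and 761 in DN2, and 984, 1017, 940 and 1012 in DN4. DN3 and DN2 overlapped, and the contrast of -0.49 ± 0.07 (SE, limma adjusted p = 0.00504) came mostly from the step to DN4 (-0.76, against -0.21). Rrm2, a subunit of ribonucleotide reductase, and Gins3 had the same shape, with steps to DN4 of -0.73 and -0.80.

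The replication troughs, named after their values were seen, dipped on both sides. Rfc2, of the clamp loader, had 679, 674, 934 and 921 in DN3, 1444, 1004, 1168 and 1382 in DN2, and 1080, 1197, 1169 and 1204 in DN4. Prim1, the primase subunit, had 2262, 1855, 2238 and 2336 in DN3 and at least 2504 elsewhere. In both, all DN3 arrays were below the others, with contrasts of -0.59 ± 0.12 and -0.46 ± 0.08 (SE, limma adjusted p = 0.0147 and 0.00963). Pole, the leading-strand polymerase, and Rfc1 had contrasts of -0.51 and -0.39, and their arrays overlapped. The contrast of Rfc1 was not called without the DN3 array of sort 2 (adjusted p = 0.0507), nor that of Rfc2 without the DN3 array of sort 1 or 2 (0.0619 and 0.0695). The trough of Rfc1 was lost without any 1 of the 12 arrays (adjusted p 0.0577 to 0.134), and that of Pole without any 1 of 9 (0.0501 to 0.11; all but the DN2 and DN4 arrays of sort 1 and the DN3 array of sort 1). The trough of Prim1 was lost without the DN2 array of sort 1, 2 or 4 or the DN3 array of sort 1 or 2 (0.0571 to 0.0763), and that of Rfc2 without the DN3 array of sort 1 or 2 or the DN4 array of sort 2 (0.0514 to 0.0583).

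Of 35 mitosis genes tested 5 were lower (Ccnb2, Cdk1, Aurkb, Kif4 and Nuf2) and 0 higher, against 5.92% and 6.38% of all genes tested. The list had 35 negative contrasts and a median of -0.22. This was the step to DN4 and not a dip: 29 were called lower than in DN4 (median -0.59), while 1 was lower and 3 were higher than in DN2 (median 0.05). Ccnb2, or cyclin B2, was the 1 trough, with 1127, 862, 1309 and 1363 in DN3, 1718, 1442, 1664 and 1844 in DN2, and 2245, 1790, 2400 and 2078 in DN4. Its DN3 arrays were below all others, with a contrast of -0.71 ± 0.08 (SE, limma adjusted p = 0.00188). Among G1 cyclins and inhibitors 7 of 19 were lower, among them Cdk2 (-0.45, adjusted p = 0.011, but -0.02 and 0.922 by the mean of its probe sets), and 2 higher (Ccnd2 and Btg1), with a median of -0.20. The lower count of this list was 2 without the DN2 array of sort 4, the DN3 array of sort 1, 2 or 3 or the DN4 array of sort 2, 3 without the DN3 array of sort 4 or the DN4 array of sort 1 or 3, and 4 without the DN2 array of sort 3.

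These cell cycle counts moved with the scaling, the block and the measure of RNA length. With arrays centred on their median 8 replication, 2 mitosis and 1 G1 genes were lower. With no normalization 0 were lower in each list, with medians of -0.04, 0.03 and 0.07 against 0.27 over all genes, so the sign turned for mitosis and G1 genes. Without the sort block 3 replication, 2 mitosis and 1 G1 genes were lower. With the ratio of 3′ to 5′ Gapdh probe sets, a sign of RNA length, as a covariate beside the block 0 were lower in each, at medians of -0.29, -0.34 and -0.20. The replication count was 8, 5, 11 and 11 without the DN3 array of sort 1, 2, 3 or 4, and 12 without the DN4 array of sort 2. The mitosis count was 8 without the DN2 array of sort 1, 3 without the DN2 array of sort 4 or the DN3 array of sort 1, and 2 without the DN3 array of sort 2 or 3. Without the 3 arrays of lowest signal (DN2 of sort 2, DN4 of sorts 1 and 2) all 3 counts were 0.

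**Figure D4:**
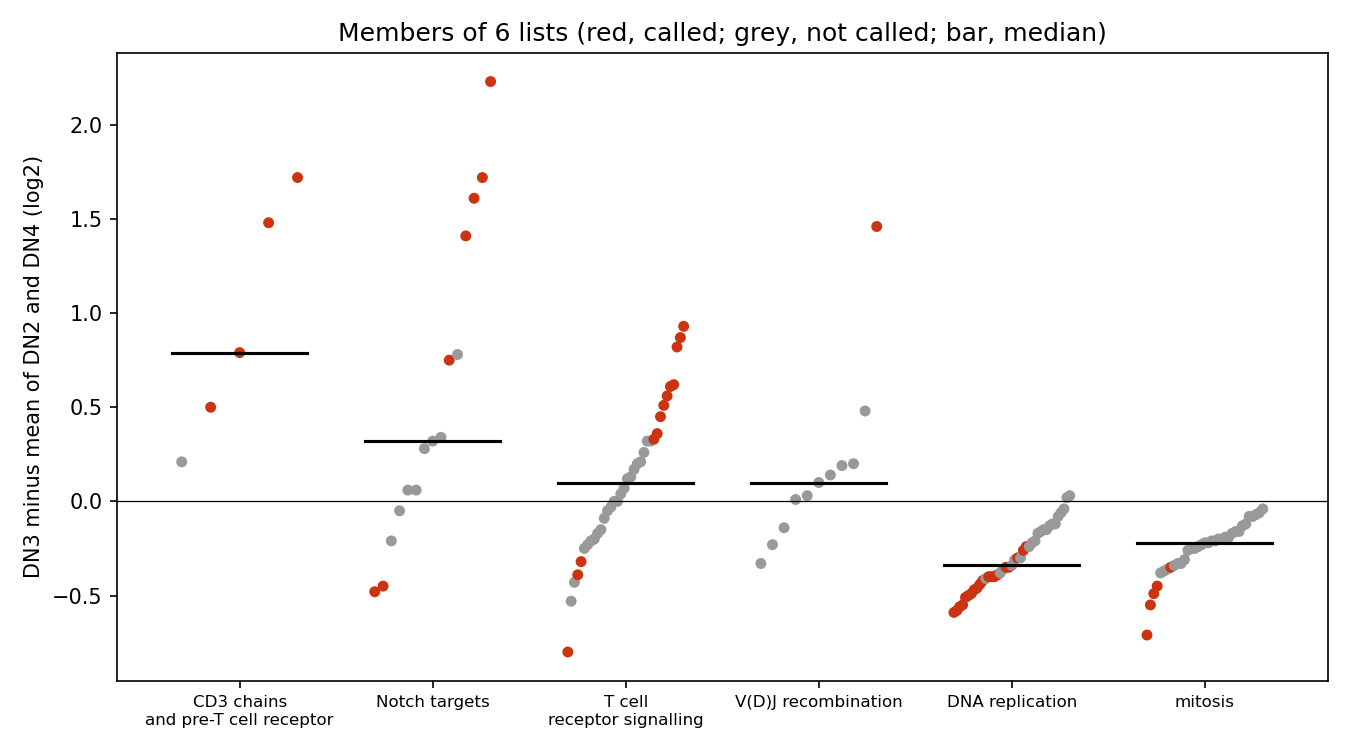
Contrast of DN3 with the mean of DN2 and DN4 (y axis, log2) for each tested member of 6 lists (x axis), 1 point a gene, red where called and grey where not, with bars at list medians. CD3 chains and pre-T alpha have a median of 0.79, whereas replication and mitosis members lie mostly below 0 with medians of -0.34 and -0.22.

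Among the largest troughs were a few transcripts of B cells or of antigen-presenting and myeloid cells. Dendritic cell markers, described below, had 4 of 7 tested lower, against 5.92% of all genes tested. Of 7 B cell markers tested 1 was lower (Ms4a1) and 0 higher, with a median of 0, and of 10 myeloid markers 2 were lower (Mpo and Ctss) and 0 higher, with a median of -0.37. Tnfrsf13c, the BAFF receptor of B cells, had 3.8, 15.5, 16.6 and 3.7 in DN3, 23.3, 29.4, 25.2 and 22.7 in DN2, and 40.3, 45.6, 26.5 and 33.4 in DN4. Ms4a1, or CD20, had 6.8, 9.7, 0.9 and 13.7 in DN3, 15.8 to 26.7 in DN2 and 12 to 46.1 in DN4. Trem1, a receptor of myeloid cells, had 20.5, 11.3, 5.9 and 4.5 in DN3 and at least 21.7 elsewhere. All 3 were dim throughout, with DN3 below the filter level (signal 20.57) in the mean, and contrasts of -1.33, -1.20 and -1.24 (limma adjusted p = 0.0084, 0.0232 and 0.0189). Each trough was lost without single arrays. For Tnfrsf13c these were the DN2 and DN3 arrays of sorts 1 and 4 (adjusted p 0.0573 to 0.0584). For Ms4a1 they were the 4 DN2 arrays, the DN3 arrays of sorts 1, 3 and 4 and the DN4 array of sort 2 (0.0509 to 0.109). For Trem1 they were the DN2 arrays of sorts 3 and 4, the DN3 array of sort 3 and the DN4 array of sort 4 (0.0523 to 0.0577). The contrast itself was also lost for Ms4a1 without the DN3 array of sort 1, 3 or 4 (0.0525 to 0.0638) and for Trem1 without that of sort 2 or 3 (0.0637 and 0.0668).

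Ctss, the protease cathepsin S of antigen-presenting cells, was brighter. It had 82.3, 52.9, 115 and 103 in DN3, 220, 202, 316 and 432 in DN2, and 93.8, 115, 265 and 233 in DN4. DN3 was lowest within each sort, with a contrast of -1.27 ± 0.15 (SE, limma adjusted p = 0.00212). H2-Aa, an MHC class II chain, had 43.0, 63.4, 99.5 and 92.6 in DN3, 220, 111, 251 and 308 in DN2, and 47.3, 305, 364 and 404 in DN4, where sort 1 stood apart. Its contrast of -1.51 and that of Cd74, the invariant chain (-0.84), had adjusted p of 0.0438 and 0.0341. Each call was lost without any 1 of 9 arrays (0.0653 to 0.128 for H2-Aa and 0.0505 to 0.115 for Cd74), the same 9 for both: the DN3 arrays, the DN2 arrays of sorts 3 and 4 and the DN4 arrays of sorts 2 to 4.

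Of the marker sums of other cell types in the plot by array, the dendritic one was lowest in DN3 in each sort. Of 12 dendritic cell markers with a probe set 7 were tested and 4 were lower (Itgax, H2-Aa, H2-Ab1 and Cd74), with a median of -0.74. Itgax, an integrin chain of dendritic cells, fell after DN2 and was lower still in the mean of DN4 (6.16, 4.10 and 3.52), so it did not dip at DN3. Its contrast of -0.74 (adjusted p = 0.0219) was not called without the DN3 array of sort 2 or 4 (0.0798 and 0.09). The number of markers called lower was 0 without the DN2 array of sort 3 or 4 or the DN3 array of sort 2 or 4, and 1 without the DN3 array of sort 1 or 3 or the DN4 array of sort 2, 3 or 4. The summed signal of the dendritic list was 1032 to 1353 in DN2, 680 to 1001 in DN3 and 718 to 1487 in DN4 (exact permutation test within sorts, two-sided p = 0.0247, adjusted p = 0.231, smallest possible p 0.0123). Siglech, Flt3, Xcr1, Zbtb46 and Batf3 lay below the filter level at every stage. The myeloid sum was 1249 to 2707 in DN2, 479 to 644 in DN3 and 243 to 532 in DN4, and the mast cell sum 2827 to 3807, 103 to 279 and 64.8 to 91.9, so both fell through the stages and did not dip at DN3. The B cell sum was 2342 to 3589, 2895 to 3147 and 4522 to 4950, most of it from Ighm. Ighm was not called in the main fit (-0.35, limma adjusted p = 0.0866). It was called without the DN2 array of sort 4 (-0.42, 0.0273). It was also called with the filter at the 75th percentile (-0.35, 0.0374) and with eBayes with trend and robust settings (-0.35, 0.0138). Cd79a, Pax5, Ebf1, Fcer2a and Cr2 lay below the filter level in the mean of every stage. The part of other cells in these troughs was not tested.

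**Figure D5:**
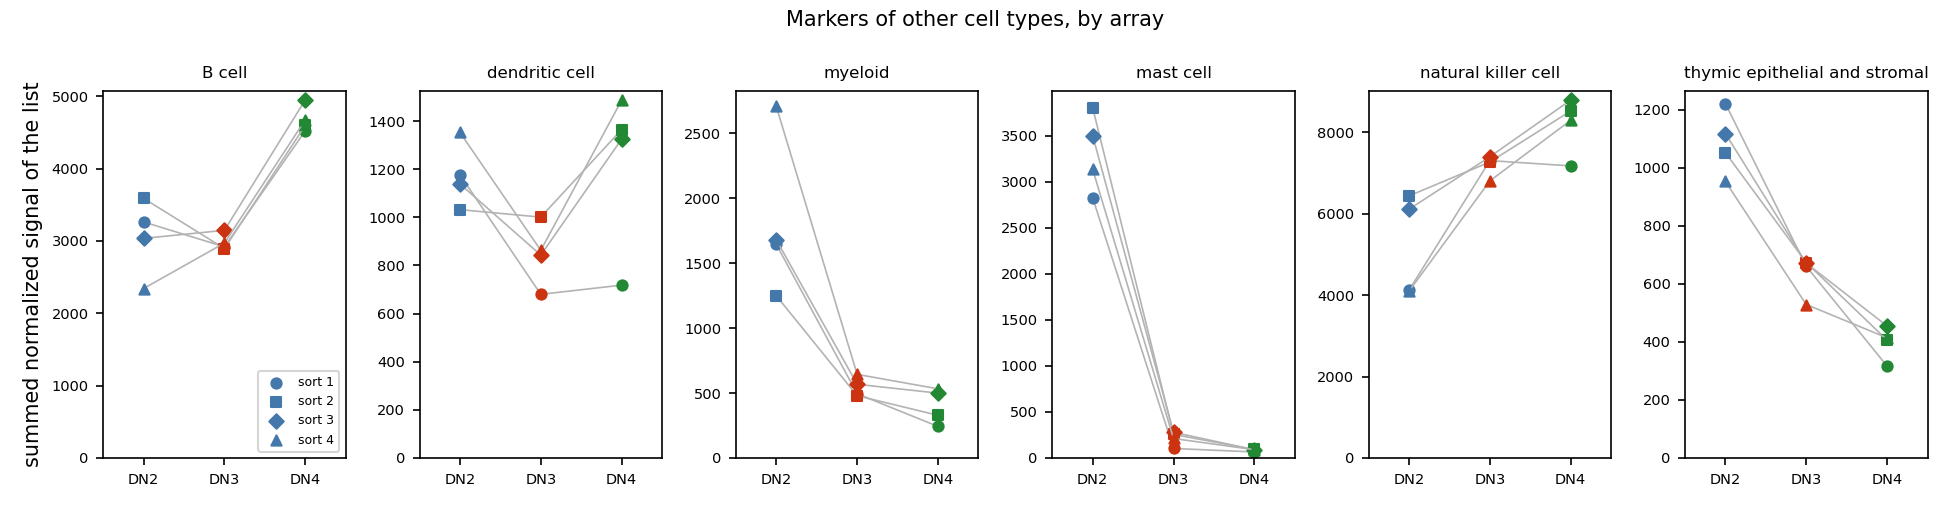
Summed normalized signal (y axis, from 0) of 6 marker lists on each array by stage (x axis), with marker shapes for the 4 sorts and lines joining arrays of a sort. The dendritic sum is lowest in DN3 in each sort (680 to 1001), the myeloid and mast cell sums fall after DN2, and the B cell sum is highest in DN4 (4522 to 4950).

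Most calls were not transient. Of the 1373 called genes, 324 were higher than DN4 only, 117 higher than DN2 only, 211 lower than DN2 only and 254 lower than DN4 only, and 69 lay between the neighbours with unequal steps. Myl10, a myosin light chain, had means of 11.30 and 11.28 in DN2 and DN3 and 8.25 in DN4, and Mycn and Ccnd2 had the same course. Lef1, a factor of the T cell receptor alpha enhancer, rose from 6.94 in DN2 to 10.40 in DN3 and had 10.65 in DN4, and Ets2 did likewise. Ifitm1 and Adgrg3 changed by -5.41 and -4.13 after DN2 and then differed from DN4 by 0.12 and -0.06. These genes had contrasts as large as many peaks (1.51, 1.61 and -2.65 for Myl10, Lef1 and Ifitm1) with 1 called step and not 2. Erg, an ETS factor of progenitors, was already lower in DN3 than in DN2 (-1.63) and stood 4.52 above DN4, and so was called higher than the mean of its neighbours.

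Across arrays the measures that could bear on any contrast were as follows. Before normalization the trimmed mean signal was 130 to 213 in DN2, 173 to 234 in DN3 and 131 to 163 in DN4. The log2 ratio of 3′ to 5′ Gapdh probe sets, a sign of RNA length after amplification, averaged 1.39, 1.04 and 1.16 (exact permutation test within sorts, two-sided p = 0.0617, adjusted p = 0.231). With that ratio as a covariate beside the sort block 125 genes were higher and 62 lower, with 43 peaks and 29 troughs, on 5 residual degrees of freedom in place of 6. Without the 3 arrays of lowest signal 184 were higher and 91 lower, with 82 peaks and 25 troughs.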

How the data were processed

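Groups and sort numbers came from the sample labels, which state that arrays of 1 number share their source of cells. The authors deposited, for each probe set, an intensity on a linear scale, and the submitters' processing notes name GCOS as the software. Which version, algorithm or scaling was used is not given in the sources used here. Of 45101 probe sets (64 controls), 34945 had 1 gene symbol and 932 had several, while 9160 had none in the table used here. RefSeq GRCm38.p6 gave current symbols for 34741. A gene was its probe set of highest mean signal (18193 genes).

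Signals were quantile normalized, an offset of the table's 25th percentile (5.567) was added and log2 taken, which understates changes of dim genes. Genes above the table-wide median (log2 4.71) on at least 4 arrays were kept (11166). Stage means with sort as a block were fitted on 12 arrays with limma 3.58.1 in R 4.3.3 (6 residual degrees of freedom), as a two-sided test, and p-values were adjusted by Benjamini-Hochberg across the 11166. Deviations of same-sort arrays correlated at 0.249 to 0.342, against at most 0.107 otherwise, and 12 of 12 arrays correlated best with their own sort. Printed signals are normalized, before the offset. The number of arrays limits the precision. Within stages arrays correlated at 0.969 to 0.985 and 0 pairs were identical.

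Named genes were the 5 marker genes, sort markers, the 20 largest peaks and 15 largest troughs at least 2-fold from both neighbours in 4 of 4 sorts, up to 3 called members of each list by smallest adjusted p, the 3 brightest of a marker list, and 5 genes for each single-step pattern; not all are printed. Genes outside it complete a count or were named after their values were seen. The members, the 39 lists (756 genes, 62 without a usable probe set) and the tests were chosen with earlier results of these data known. Just inside the peak rule lay Tefm (larger adjusted p 0.0499) and just outside AI854703 (0.0501); for troughs these were Lrrcc1 (0.05) and Lig1 (0.0502).

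The fit was tested on simulated data (11166 genes): 52%, 72%, 96% and 100% of genes seeded at log2 contrasts of 0.5, 1, 2 and 4 were called, 28%, 68%, 90% and 100% also as peak or trough, with 5 false calls among 10966 unchanged genes. Alternatives are given in the closing section. Python 3.11.15 and matplotlib 3.10.9 made the plots.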

Additional observations from a re-analysis of the deposited data

Results flagged for a closer look

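In 11 of 252 groups of 4 arrays examined (the stages of 80 genes printed and of 4 array measures), 1 array lay apart from the other 3 by more than Dixon's 95% critical share of the group's range, where chance flags about 1 in 20 groups. Values are log2 of normalized signal plus offset. In DN2 of sort 1, Arhgef10l was at 4.72 against 2.85 to 2.88 in the other sorts, Cdh15 at 7.40 against 6.71 to 6.77, and Vwce at 4.36 against 4.95 to 5.00. In DN2 of sort 4 Epcam was at 6.30 against 7.73 to 7.87, and in DN2 of sort 3 Pole was at 9.13 against 9.65 to 9.74. In DN3, Cd74 was at 5.50 in sort 1 against 5.93 to 5.99, Chn2 at 4.63 in sort 3 against 2.71 to 2.93, and Dtx4 at 7.59 in sort 4 against 7.28 to 7.33. In DN4, H2-Aa was at 5.72 in sort 1 against 8.28 to 8.68, Evl at 7.01 in sort 1 against 6.65 to 6.71, and Vwce at 6.00 in sort 2 against 6.20 to 6.21. The DN2 array of sort 1 accounts for 3 of the 11.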

How the results depend on the processing

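The main counts were 712 higher, 661 lower, 236 peaks and 162 troughs, and each series below follows that order. Without the sort block, that is with the pairing by sort ignored, they were 308, 240, 106 and 46 (306, 238, 105 and 46 of them shared with the fit with the block). With arrays centred on their median they were 1198, 284, 360 and 50, and with no between-array normalization 1425, 94, 251 and 9. With no filter on dim signals they were 369, 238, 134 and 65. With the Gapdh ratio as covariate and the block they were 125, 62, 43 and 29. Sorts 1 and 2 alone gave 105, 38, 55 and 20, and sorts 3 and 4 alone 114, 46, 77 and 34, each on 2 residual degrees of freedom. At least 2-fold left 123, 69, 36 and 6. The mean of all probe sets gave 101 troughs and array weights 1007 lower genes. Without the 3 arrays of lowest signal, an alternative chosen after seeing the data, they were 184, 91, 82 and 25. Leaving out 1 array at a time gave 324 to 726 higher genes, 228 to 651 lower genes, 134 to 222 peaks and 75 to 143 troughs. An offset of 1, a filter at the 75th percentile, probe sets matching several transcripts left out and eBayes with trend and robust settings moved none of the 4 counts by over 1.5 times.

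Alternatives were run for 80 genes printed with values, of which 76 were called in the contrast. None of these turned direction while called under any of the 27 alternatives. Calls were lost for 34 of 68 tested with sorts 1 and 2 only, 33 of 71 with sorts 3 and 4 only, 35 with the Gapdh covariate, 30 of 76 without the 3 arrays of lowest signal, 29 at 2-fold, 18 without normalization, 17 without the block, 11 of 77 with the mean of probe sets, 10 with median centring and 10 with no filter. Leaving out a single array lost 2 to 14. Signals of dim genes near the filter level limit the sizes of their differences, which depend on the offset.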
